A study of Arabidopsis thaliana with 18 samples.

Results

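UGT78D1 (AT1G30530) and UGT78D2 (AT5G17050) are Arabidopsis thaliana genes for enzymes that attach sugars to flavonols, and they are described here as 2 genes in 6 groups of seedlings. The members were the probe sets that the array annotation assigns to exactly 1 of these genes. Each gene had 1 such probe set, so the members were 2 of the 13287 genes with a probe set of their own. The array held 22746 probe sets without its controls, 13513 of them listing a single gene. Of 47 genes on a probe set of their own whose symbol begins with UGT, the name given to UDP-dependent glycosyltransferases, 30 were bright enough to be tested, among them both members. These are called UGT genes below. A gene of the family without a UGT symbol in the annotation used is not among them, such as AT1G06000, listed here as UGT89C1.

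The series measured how white light changes the RNA of dark-grown seedlings. All groups were seedlings of the wild-type accession Col-0, grown for 4 days in darkness, from which the aerial parts were taken. The dark seedlings received no light, and the others received white light for 0.5 h or 4 h. From each condition, steady-state RNA (all transcripts present) and polysome RNA (transcripts carrying ribosomes, recovered from a sucrose gradient) were hybridised to single-colour Affymetrix arrays, with 3 arrays labelled as biological replicates in each group and 18 arrays in all. Because all arrays carry the same scaled mean, a change shared by most transcripts could not be seen. In whole aerial parts, a larger number of cells that make a transcript and more transcript per cell cannot be told apart.

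Flavonols are colourless flavonoids that absorb ultraviolet light and act as antioxidants, and plants store them mainly as glycosides. The UGT enzymes transfer a sugar from a UDP-sugar onto such small molecules. UGT78D1 transfers rhamnose and UGT78D2 glucose to the same position of the flavonol, and UGT78D2 also acts on anthocyanidins. Light is a classical inducer of the flavonoid pathway in seedlings. In the order of protein-coding genes of the reference annotation (TAIR10.1), UGT78D2 lies on chromosome 5 beside AT5G17040 and then UGT78D3, the gene of a flavonol arabinosyltransferase, with ARFB1B on its other side. UGT78D1 lies on chromosome 1, between AAE14 and AT1G30540.

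Both genes rose strongly after 4 h of light, in steady-state and in polysome RNA. UGT78D2 had already risen at 0.5 h in both kinds of RNA, and UGT78D1 did not pass the test at 0.5 h in either. At 4 h the fitted rise in steady-state RNA was 24-fold for UGT78D2 and 19.7-fold for UGT78D1. No polysome-to-steady-state ratio of either gene, and no change of such a ratio, passed the test.

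The start levels were low. In dark steady-state RNA the UGT78D1 signal was 72.8, 82.8 and 17.6 in replicates 1 to 3, with a mean of 57.7 ± 35.1 (SD, n = 3). In dark polysome RNA it was 62.8, 84 and 54.6, with a mean of 67.1 ± 15.2. Replicate 3 of the dark steady-state group stood far below the other 5 dark arrays, and it weighs on every UGT78D1 value measured against that group. UGT78D2 gave 67.2, 81.8 and 108.3 in dark steady-state RNA (85.8 ± 20.8) and 148.4, 107.8 and 119.2 in dark polysome RNA (125 ± 20.9). Signals of different probe sets depend on their probes, so the level of one gene cannot be set against that of the other. Only their changes were compared. The geometric mean of UGT78D1 in dark steady-state RNA, 47.3, lay close to 42.1, the smallest geometric mean over all arrays among the 15922 probe sets tested.

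After 0.5 h of light the UGT78D2 signal in steady-state RNA was 462.4, 267.3 and 289.2, with a mean of 340 ± 107. All of these arrays lay above all dark arrays, and the log2 change was 1.97 ± 0.234 (SE of the fit), a 3.92-fold rise (limma, adjusted p = 4.9e-05). In polysome RNA the signal was 356.1, 316.6 and 305.8, with a mean of 326 ± 26.5. Here too the light arrays lay above the dark arrays, and the log2 change was 1.39 ± 0.234, or 2.63-fold (limma, adjusted p = 0.0019). The 3 replicate numbers gave polysome changes of 1.26, 1.55 and 1.36, and steady-state changes of 2.78, 1.71 and 1.42, so every replicate rose.

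UGT78D1 after 0.5 h of light gave 78.1, 133.1 and 85.5 in steady-state RNA (98.9 ± 29.9) and 90.6, 38.5 and 61.3 in polysome RNA (63.5 ± 26.1). Both sets of arrays overlapped their dark groups. The log2 change was 1.02 ± 0.435 in steady-state RNA (limma, adjusted p = 0.523) and -0.14 ± 0.435 in polysome RNA (limma, adjusted p = 1). Without dark steady-state replicate 3, the array at 17.6, the steady-state change was 0.31, a fold of 1.24. By replicate number the steady-state change was 0.10, 0.68 and 2.28, and the polysome change 0.53, -1.13 and 0.17, so the polysome values did not share a sign.

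At 0.5 h the response was small across the array. In steady-state RNA 0.741% of the probe sets tested were called higher and 0.685% lower at an adjusted p under 0.05, and in polysome RNA 0.628% and 0.678%. UGT78D2 ranked 54 among 15922 by its steady-state change and 104 by its polysome change. UGT78D1 ranked 320 and 11729.

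**Figure D1:**
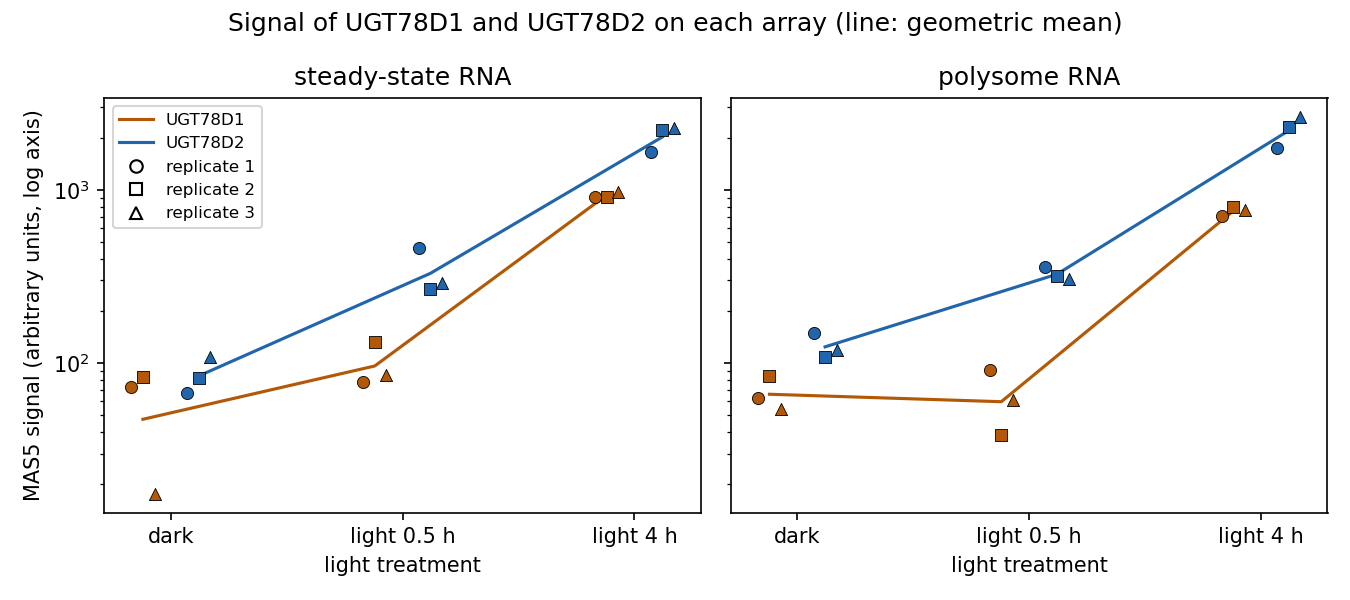
Scaled MAS5 signal (arbitrary units, log axis) of UGT78D1 and UGT78D2 on each of the 18 arrays, by light treatment, in steady-state RNA (left) and polysome RNA (right); symbols mark replicates 1 to 3 and lines join geometric means. UGT78D2 lies above its dark arrays already at 0.5 h, UGT78D1 overlaps its dark arrays there and is far above them at 4 h, and heights of the 2 genes are not comparable with each other.

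After 4 h of light the arrays of each gene stood well above those of the earlier treatments. The UGT78D1 signal in steady-state RNA was 914.1, 909.6 and 972.8 (932 ± 35.3), a coefficient of variation of 3.78% against 60.8% in the dark. The log2 change from dark was 4.30 ± 0.435, or 19.7-fold (limma, adjusted p = 1.74e-07). Without dark steady-state replicate 3 it was 3.59, or 12-fold, and still called (limma, adjusted p = 8.58e-08), and with 32 added to all signals ahead of the log it was 3.52, or 11.5-fold. In polysome RNA the UGT78D1 signal was 709.5, 792.5 and 760.9 (754 ± 41.9). That change was 3.51 ± 0.435, or 11.4-fold (limma, adjusted p = 2.47e-06), and 7.98-fold with 32 added. The size of the UGT78D1 fold thus moved with 1 dark array and with the handling of low signals, while its call held under each of these settings.

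UGT78D2 after 4 h of light gave 1643, 2202 and 2264 in steady-state RNA (2036 ± 342) and 1748, 2300 and 2636 in polysome RNA (2228 ± 448). No 4 h array overlapped a dark or a 0.5 h array. The log2 changes from dark were 4.58 ± 0.234, or 24-fold, in steady-state RNA (limma, adjusted p = 1.87e-11) and 4.15 ± 0.234, or 17.7-fold, in polysome RNA (limma, adjusted p = 6e-11). Many transcripts responded at 4 h: 16.9% of the probe sets tested were called higher and 17.1% lower in steady-state RNA, and 15.6% and 20.1% in polysome RNA. By size of change UGT78D2 ranked 38 among all probe sets tested in steady-state RNA and 54 in polysome RNA, and UGT78D1 ranked 51 and 97.

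From 0.5 h to 4 h, the later step, UGT78D1 rose by 3.28 ± 0.435 on the log2 scale in steady-state RNA, or 9.69-fold (limma, adjusted p = 6.95e-06). In polysome RNA it rose by 3.66 ± 0.435, or 12.6-fold (limma, adjusted p = 1.92e-06). UGT78D2 rose by 2.61 ± 0.234 (6.12-fold, limma, adjusted p = 4.27e-08) and by 2.76 ± 0.234 (6.75-fold, limma, adjusted p = 2.14e-08). UGT78D2 had the larger change in the first step and UGT78D1 in the second, in both kinds of RNA. In this comparison 16.4% of the probe sets tested were called higher and 17.5% lower in steady-state RNA, and 14.6% and 18.9% in polysome RNA. The comparisons with dark share the dark arrays, and those of 4 h share the 4 h arrays, so they are not independent of each other.

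Read as a time course, 43% of the 4 h log2 change of UGT78D2 was present at 0.5 h in steady-state RNA and 33.6% in polysome RNA. For UGT78D1 the corresponding shares were 23.8% and -4.08%. Without dark steady-state replicate 3 the first was 8.6%, and without dark polysome replicate 2 the second was 0.82%. In all, UGT78D2 was called in 6 of 6 light comparisons and UGT78D1 in 4 of 6.

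**Figure D2:**
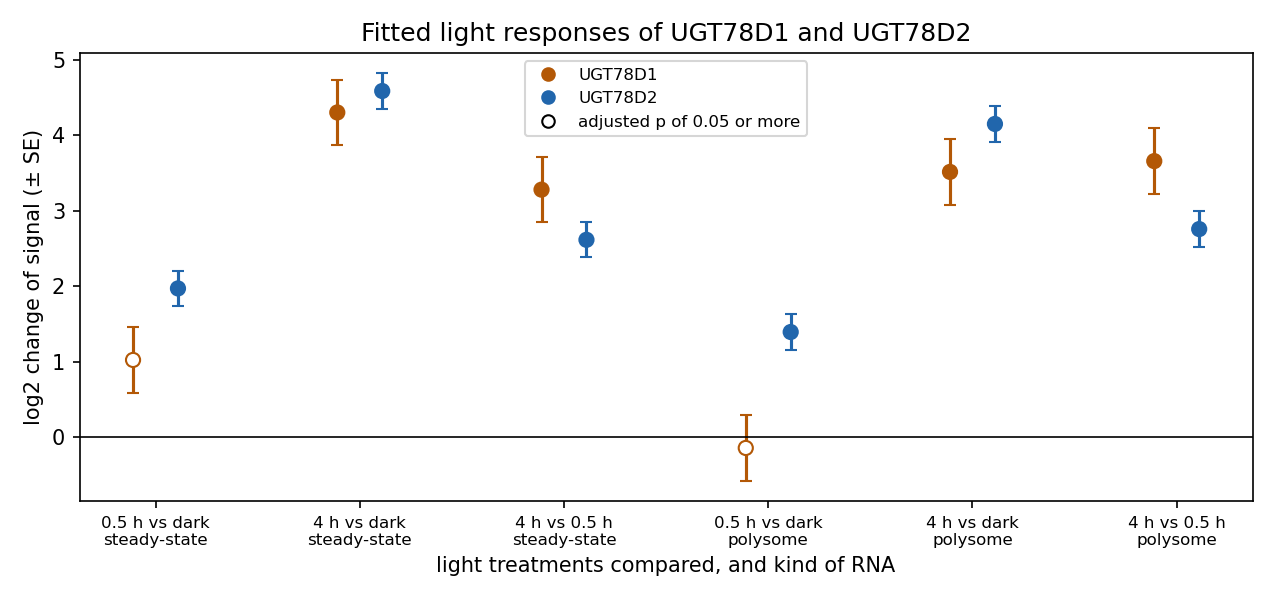
Fitted log2 change of signal (points) with its SE (bars) for UGT78D1 and UGT78D2 in the 6 light comparisons; open points have an adjusted p of 0.05 or more. The only open points are those of UGT78D1 at 0.5 h, at 1.02 in steady-state RNA and -0.14 in polysome RNA.

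Being called for one gene and not for the other does not show that the genes differ, so the difference was tested itself. On each array the log2 signal of UGT78D2 was taken from that of UGT78D1. This value has no meaning as a level, but its shift between groups is the difference between the changes of the genes. In polysome RNA it was -1.24, -0.36 and -1.13 in the dark, -1.98, -3.04 and -2.32 at 0.5 h, and -1.30, -1.54 and -1.79 at 4 h. The 3 groups did not overlap: the 0.5 h arrays were lowest and the dark arrays highest.

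In polysome RNA at 0.5 h the change of UGT78D1 was lower than that of UGT78D2, with a log2 shift of -1.54 ± 0.638 (SE). The range over the 9 array pairs was from -2.68 to -0.73. This SE comes from the pooled SD of the difference within the 6 groups, the dark steady-state arrays included, and not from limma. At 4 h the shift from dark was -0.63, with a range from -1.43 to -0.061. Between 0.5 h and 4 h it was 0.90, with a range from 0.18 to 1.74. Each of these gave a two-sided exact permutation p of 0.1, the smallest that 3 arrays against 3 allow, and 0.2 after adjustment over the 6 comparisons. With 3 arrays a group, a single comparison of this kind cannot pass an adjusted p of 0.05.

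In steady-state RNA the same value was 0.12, 0.018 and -2.62 in the dark, -2.57, -1.01 and -1.76 at 0.5 h, and -0.85, -1.28 and -1.22 at 4 h. The dark arrays spread over the whole range of the others, through replicate 3. The shift was -0.95 at 0.5 h (exact permutation p = 0.4) and -0.28 at 4 h (exact permutation p = 1), and 0.66 between 0.5 h and 4 h (exact permutation p = 0.3), each ± 0.638. After adjustment over the 6 comparisons these p-values were 0.48, 1 and 0.45. Without dark replicate 3 the shift was -1.84 at 0.5 h (exact permutation p = 0.2) and -1.18 at 4 h (exact permutation p = 0.1). The ranges over array pairs, with all arrays, included 0, from -2.68 to 1.62, from -1.39 to 1.78 and from -0.27 to 1.72. The dark values of replicates 1 and 2 lay above all 0.5 h and 4 h values, so the overlap with the dark group rests on replicate 3. The exact permutation test cannot go below p = 0.1 here. It therefore does not decide whether the 2 genes differ in steady-state RNA.

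**Figure D3:**
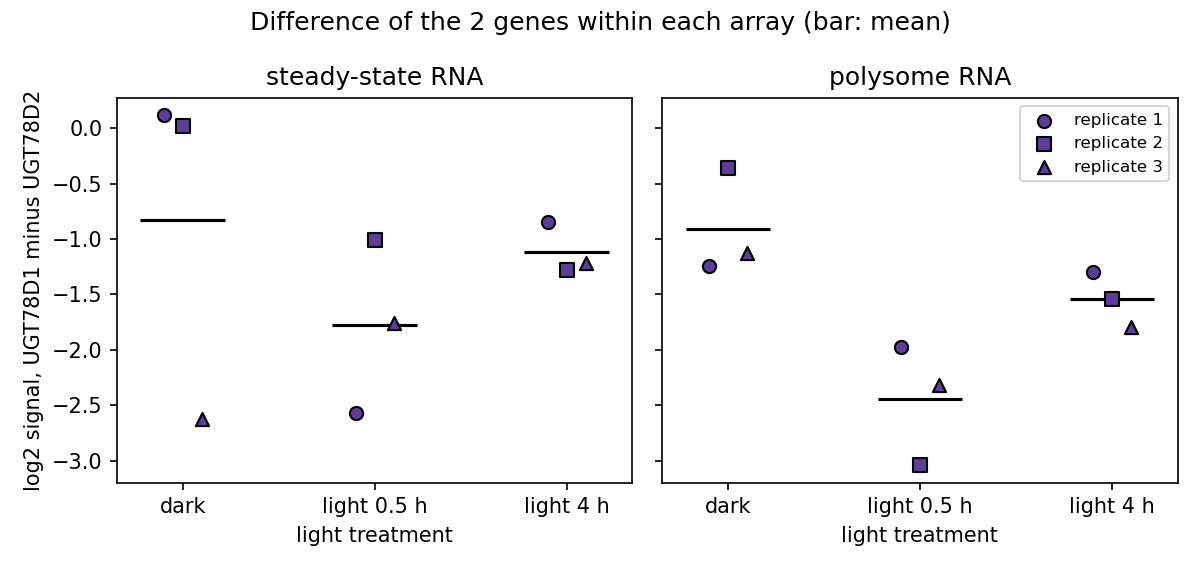
Log2 signal of UGT78D1 minus log2 signal of UGT78D2 within each array (y axis) by light treatment, in steady-state RNA (left) and polysome RNA (right), with bars at the group means. In polysome RNA the groups are separate, with 0.5 h lowest at -3.04 to -1.98; in steady-state RNA the dark array at -2.62 makes the groups overlap.

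The polysome-to-steady-state ratio compares the signal on polysomes with that in steady-state RNA of the same condition. For UGT78D1 its log2 value was 0.48 ± 0.435 in the dark (limma, adjusted p = 0.589), -0.69 at 0.5 h (limma, adjusted p = 0.375) and -0.31 at 4 h (limma, adjusted p = 0.729). By replicate number the UGT78D1 ratio was -0.21, 0.021 and 1.63 in the dark, 0.21, -1.79 and -0.48 at 0.5 h, and -0.37, -0.20 and -0.35 at 4 h. At 4 h the polysome arrays all lay below the steady-state arrays, and the dark and 0.5 h arrays overlapped. Without dark steady-state replicate 3 the dark ratio turned to -0.23.

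For UGT78D2 the log2 ratio was 0.56 ± 0.234 in the dark (limma, adjusted p = 0.155), -0.017 at 0.5 h (limma, adjusted p = 0.98) and 0.12 at 4 h (limma, adjusted p = 0.808). By replicate number it was 1.14, 0.40 and 0.14 in the dark, -0.38, 0.24 and 0.081 at 0.5 h, and 0.089, 0.063 and 0.22 at 4 h. The dark ratio was positive in 3 of 3 replicates without passing the test, and the arrays of the 2 kinds of RNA overlapped in each condition. Over all probe sets tested, 8.25% had a called ratio in the dark, 8.32% at 0.5 h and 13.4% at 4 h, in either direction.

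The change of the ratio from dark to 0.5 h was -1.17 ± 0.615 for UGT78D1 and -0.58 ± 0.33 for UGT78D2 (limma, adjusted p = 1 for both). These were the lowest and the third lowest, places 30 and 28 from the top, of the 30 measured UGT genes. Across the array 0% of the probe sets were called in this comparison, and limma gave 257 of 15922 at an unadjusted p under 0.05, where UGT78D1 had 0.073 and UGT78D2 0.0963. Without dark steady-state replicate 3 the UGT78D1 change was -0.45 at 0.5 h and -0.073 at 4 h. The -0.45 lies above the -0.58 that UGT78D2 had with all arrays, so the lowest place of UGT78D1 leans on that replicate. From dark to 4 h the change was -0.79 for UGT78D1 (limma, adjusted p = 0.862) and -0.44 for UGT78D2 (limma, adjusted p = 0.855), with 0.364% of probe sets called. From 0.5 h to 4 h it was 0.38 (limma, adjusted p = 0.928) and 0.14 (limma, adjusted p = 0.955), with 0.0188% called.

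The polysome and steady-state arrays differed in a control of RNA integrity. The ratio of the 3′ to the 5′ control probe set of GAPDH was 1.40 to 2.17 on steady-state arrays and 3.95 to 9.60 on polysome arrays, and that of actin 7.46 to 13.7 and 14.2 to 41.4. The part of this difference in the polysome-to-steady-state ratios was not tested.

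**Figure D4:**
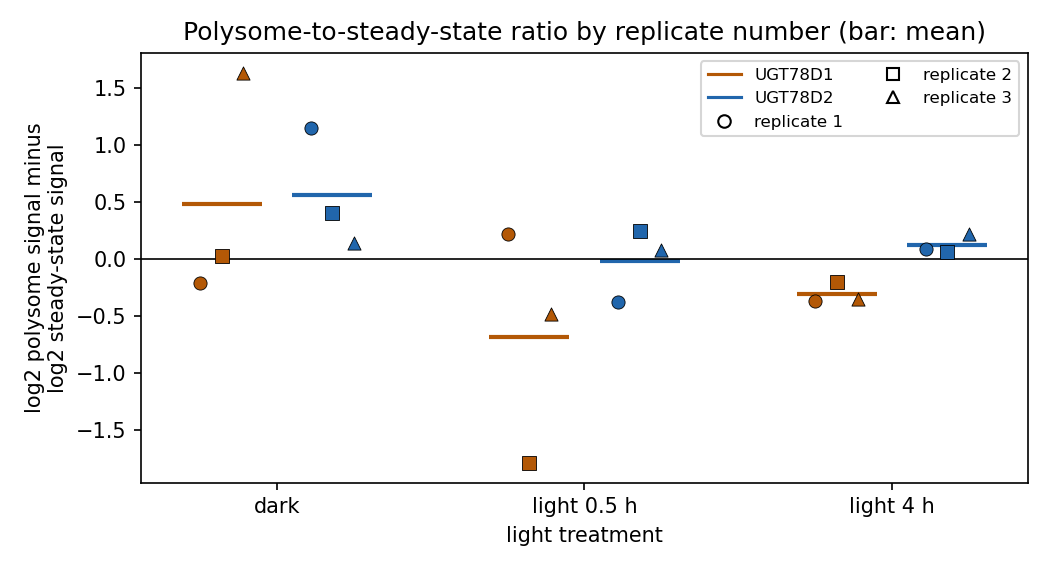
Log2 polysome signal minus log2 steady-state signal (y axis) of UGT78D1 and UGT78D2 for replicates 1 to 3 in the dark and after 0.5 h and 4 h of light, with bars at the means. The UGT78D1 ratio spreads from -0.21 to 1.63 in the dark and from -1.79 to 0.21 at 0.5 h, and both genes spread least at 4 h.

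Set in the order of their mean signals, the 6 groups of UGT78D1 began with dark steady-state, 0.5 h polysome, dark polysome and 0.5 h steady-state RNA, whose neighbours in this order overlapped. The 4 h polysome group came next and the 4 h steady-state group last. Both were separate from all others, and they did not overlap each other, although the test did not call them apart. For UGT78D2 the order was dark steady-state, dark polysome, 0.5 h polysome, 0.5 h steady-state, 4 h steady-state and 4 h polysome RNA. Within each light treatment the arrays of the 2 kinds of RNA overlapped, and between treatments the arrays were separate. The pooled within-group SD on the log2 scale was 0.605 for UGT78D1 and 0.297 for UGT78D2.

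Among the 30 measured UGT genes, 11 were called higher and 3 lower at 4 h in steady-state RNA, and 8 and 4 in polysome RNA. Over all probe sets tested, 16.9% were called higher and 17.1% lower in the first and 15.6% and 20.1% in the second. Among these 30 genes named UGT, UGT78D2 and UGT78D1 had the largest and the second largest change in both. AT1G06000, listed as UGT89C1 but without that symbol in the annotation, is not among the 30. It changed by 4.31 ± 0.437 in steady-state and 4.00 ± 0.437 in polysome RNA, against 4.30 and 3.51 for UGT78D1. The next of the 30 by steady-state change was UGT76E11, which rose from 83.7 ± 32.8 to 404 ± 54.4, a log2 change of 2.36 ± 0.378 (limma, adjusted p = 5.36e-05). UGT74D1, whose enzyme acts on auxin, changed by 2.14 ± 0.273 (limma, adjusted p = 3.52e-06), and was named after its values were seen. UGT72E1, the gene of a glucosyltransferase of the lignin precursor coniferaldehyde, fell from 377 ± 80 to 65.6 ± 17.9, a log2 change of -2.54 ± 0.249 (limma, adjusted p = 1.13e-07). UGT85A4 and UGT71C5, of which UGT71C5 encodes an abscisic acid glucosyltransferase, had changes of -1.09 ± 0.273 and -0.65 ± 0.203 (limma, adjusted p = 0.00362 and 0.0175). The other 17 of the 47 genes with a UGT symbol and a probe set of their own were too dim to be tested.

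Leaving out the 2 members, 9 of 28 UGT genes, or 32.1%, were called higher at 4 h in steady-state RNA, with a median log2 change of 0.26, against 16.9% and a median of -0.0067 over all probe sets tested. In polysome RNA 6 of 28, or 21.4%, were called higher, with a median of 0.0051, against 15.6% and -0.094, so this share was near that of the array. A gene that passed the filter on dim signals through its light arrays alone is favoured in such counts.

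At 0.5 h, 0.741% of all probe sets tested were called higher and 0.685% lower in steady-state RNA, and 0.628% and 0.678% in polysome RNA. UGT78D2 was the only one of the 30 called higher at 0.5 h in steady-state RNA, and also in polysome RNA. UGT85A2 was the only one called lower in each, by -1.13 ± 0.241 (limma, adjusted p = 0.0153) and -1.37 ± 0.241 (limma, adjusted p = 0.00283), and was named after its values were seen. UGT78D1, not called in either, had the second largest steady-state change of the 30 at 0.5 h and place 18 in polysome RNA. Its steady-state change fell from 1.02 to 0.31 without dark steady-state replicate 3, so that place leans on this array. Between 0.5 h and 4 h, 11 UGT genes were called higher and 2 lower in steady-state RNA, and 10 and 1 in polysome RNA. Over all probe sets tested the shares were 16.4% and 17.5%, and 14.6% and 18.9%. UGT78D1 had the largest change of the 30 in both kinds of RNA. AT1G06000, which is not among the 30, changed by 4.04 in steady-state RNA, against 3.28 for UGT78D1. In polysome RNA it changed by 3.52, against 3.66.

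Polysome-to-steady-state ratios of the 30 UGT genes were called for 0 higher and 1 lower in the dark, 1 and 2 at 0.5 h, and 0 and 3 at 4 h. Over all probe sets tested, 8.25%, 8.32% and 13.4% were called in either direction. The members were among none of these.

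**Figure D5:**
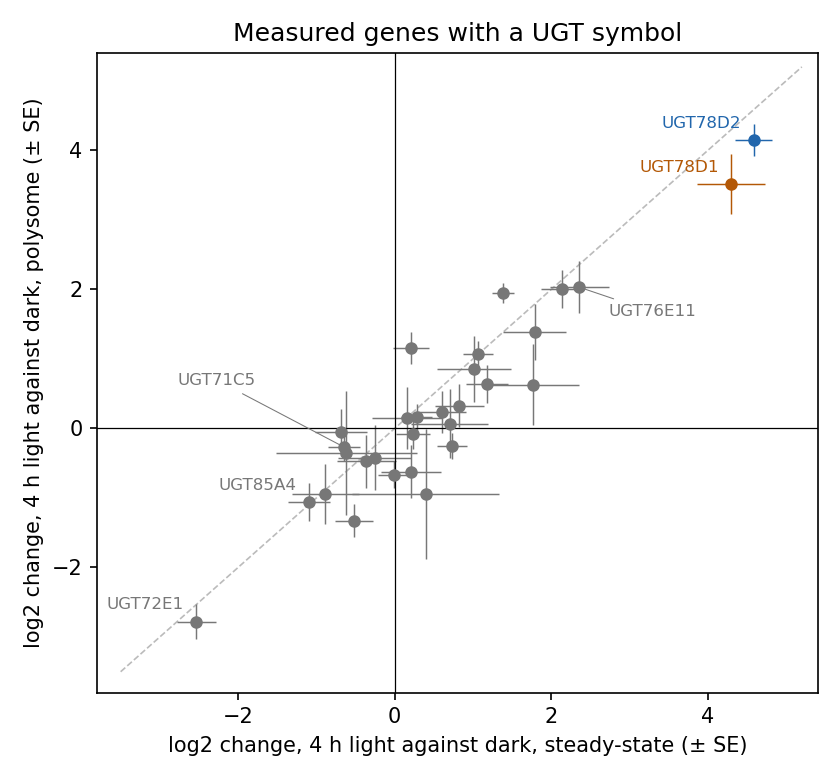
Log2 change from dark to 4 h of light in steady-state RNA (x axis) and polysome RNA (y axis) for the 30 measured genes with a UGT symbol, with bars for the SE of the fit; the dashed line marks equal change in both. UGT78D2 (4.58 and 4.15) and UGT78D1 (4.30 and 3.51) stand at the upper right, and UGT76E11 is the next of these genes in steady-state RNA (2.36 and 2.03).

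UGT78D3 and AT5G17040, the 2 nearest neighbours of UGT78D2 on one side, were dim on the array. The UGT78D3 signal lay between 3 and 32.7 on the 18 arrays, and that of AT5G17040 between 4.7 and 66. Both fell below the filter on dim signals and were not tested. In dark steady-state RNA AT5G17040 gave 16.3, 28.9 and 23, and after 0.5 h of light 53.2, 43.2 and 48.3, above all its dark arrays. In polysome RNA at 0.5 h it gave 8.1, 4.8 and 26.9, and these low values allow no further reading.

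Little of the rest of the flavonoid pathway could be read on its own probe set in the annotation used. Of 25 listed pathway genes 10 had one and 3 were tested: both members and AT1G06000. The pathway list gives AT1G06000 as UGT89C1, and the annotation used gives it no symbol. AT1G06000 gave 188.8, 106.3 and 101.9 in dark steady-state RNA and 2347, 2625 and 2578 after 4 h of light. Its log2 change was 4.31 ± 0.437 in steady-state RNA (limma, adjusted p = 1.8e-07) and 4.00 ± 0.437 in polysome RNA (limma, adjusted p = 4.74e-07). These lie beside the 4.30 and 3.51 of UGT78D1. From 0.5 h to 4 h AT1G06000 changed by 4.04 in steady-state RNA, against 3.28 for UGT78D1, and by 3.52 in polysome RNA, against 3.66. At 0.5 h its change from dark was 0.27 and 0.48 and was not called, so all 3 genes were called at 4 h and UGT78D2 alone at 0.5 h.

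CHIL, the gene of a chalcone isomerase-like protein that assists flavonoid synthesis, fell below the filter, which works on the mean over all arrays. It gave 3.7, 4.7 and 9.3 in dark steady-state RNA, 10.7, 8.9 and 4.6 at 0.5 h, and 1133, 1191 and 1646 at 4 h. In polysome RNA at 4 h it gave 1112, 903.6 and 1236. UF3GT, which encodes an anthocyanin xylosyltransferase, went from 6.2, 10.4 and 15.9 in dark steady-state RNA to 159.1, 22.9 and 103.7 at 4 h. DFR, whose enzyme opens the branch to anthocyanins, gave 25.2, 27.4 and 77.9 in the dark and 80.2, 33.7 and 90.6 at 4 h, with overlapping arrays. These genes were not tested. The remaining dim ones were AT5MAT, AT4G14090, UGT78D3 and AT5G17040, and AT4G14090 gave 28.8, 3.3 and 8.1 in dark steady-state RNA against 49.4, 62.3 and 60.5 at 4 h.

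Of 17 listed regulators of the pathway, 1 was measured. HYH, a bZIP transcription factor of light signalling related to HY5, gave 54.6, 68.2 and 79.7 in dark steady-state RNA and 1006, 1013 and 1383 after 4 h. Its log2 change was 4.07 ± 0.322 in steady-state RNA (limma, adjusted p = 5.69e-09) and 4.18 ± 0.322 in polysome RNA (limma, adjusted p = 3.98e-09). At 0.5 h the change was 0.82 and 0.50 and was not called. None of 11 genes of phenylpropanoid entry, 9 of UDP-sugar supply and 5 epidermis markers had a probe set of its own.

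Marker genes of green aerial tissue and of root were read as a description, and they do not settle which parts were harvested. The 5 markers of green aerial tissue were all measured, and their summed signal lay between 22580 and 37130 on the dark and 0.5 h arrays and between 57140 and 84670 on the 4 h arrays. At 4 h all 5 were called higher in steady-state RNA and 4 of 5 in polysome RNA, against 16.9% and 15.6% of all probe sets tested. The other marker changed by 0.29 in polysome RNA and was not called. Median log2 changes of the 5 were 1.84 and 1.70, against -0.0067 and -0.094 over all probe sets tested. At 0.5 h the medians of the 5 were 0.034 and 0.087, so these markers moved with the 4 h values of both members. Their part in those values was not tested. Of 7 root markers 2 had a probe set of their own in the annotation used, EXPA7 at 3.1 to 50.4 and EXPA18 at 9.5 to 95.9. Their summed signal was 14.6 to 101.9, and neither was bright enough to be tested.

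The genes whose log2 signals ran most like those of each member were found by Pearson's r over the 18 arrays, among the 8787 other tested probe sets that list 1 gene. The arrays share 6 groups, so r mostly follows the group means and is given as a description. For UGT78D1 the closest were GR1, a glutathione reductase gene, at 0.972, AT2G35260 at 0.964, AT5G52970 at 0.963, VTC4, a gene of ascorbate synthesis, at 0.959, and AT5G45950 at 0.958. Their changes at 0.5 h in steady-state RNA lay between -0.0029 and 0.29 and at 4 h between 1.48 and 2.89.

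For UGT78D2 the closest were AT3G56290 at 0.980, AFR, an F-box protein gene of far-red light signalling, at 0.974, AT3G02910 at 0.967, AT4G24700 at 0.965 and AT1G64850 at 0.962. Their changes at 0.5 h in steady-state RNA lay between 0.27 and 2.04 and at 4 h between 1.11 and 5.57. The r between the 2 members was 0.892, which put UGT78D2 at place 192 in the order of UGT78D1 and UGT78D1 at place 161 in that of UGT78D2. After the group means were taken away, the deviations of the members had an r of -0.433 over the 18 arrays. Dark steady-state replicate 3 weighs on this value, with UGT78D1 at 17.6, its lowest signal, and UGT78D2 at 108.3, the highest of its group. It is given as a description and was not tested.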

How the data were processed

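The deposited table holds the authors' MAS5 signal intensity values on a linear scale, per the submitters' processing notes; the sources used here give neither its version nor its settings. The 2% trimmed mean was 500.04 to 500.05 on each array and array medians were 153.9 to 205.7. From these intensity values 64 control probe sets were removed, 915 values below a floor of 1 were set to it, and the rest of the work used log2 of the signal. The 15922 probe sets at or above the 30th percentile of mean log2 signal were tested. Of these, 8788 list 1 gene, 326 several and 6808 none in the platform annotation, with symbols updated from RefSeq's gene table for TAIR10.1. Detection calls, which would show whether a dim signal is above background, were not used here. The number of arrays limits precision, and no scan or batch label was used.

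One model with 6 group means over 18 arrays was fitted in limma 3.58.1 (R 4.3.3), with moderated variances and an intensity trend, and p-values were Benjamini-Hochberg adjusted over all probe sets tested (threshold 0.05). The change of UGT78D1 was compared with that of UGT78D2 by an exact permutation test of their difference within arrays (20 assignments). The labels call the replicates biological. Replicate numbers pair the arrays: over 9 pairs of groups, deviations from group means of arrays with the same number correlated at 0.108 to 0.426, and of others at 0.0359 or less; the pairing comes from the data and the numbers in the labels. No 2 arrays shared more than 0.285% of their signals. The scripts were tested on simulated data.

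The members, gene lists and tests were chosen with earlier results of these data known. Genes named are the members, each measured gene of the pathway lists, the 3 higher and 3 lower called UGT genes of largest change at 4 h in steady-state RNA, and the 5 genes most correlated with each member; exceptions are stated. The alternatives changed the arrays fitted (those compared alone, or with one left out), the scaling (quantile, or a common median), the filter (none, or the 50th percentile with 11373 probe sets), the intensity trend (none), the low signals (32 added) and the replicate block. Sequences of the genes were not analysed here.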

Additional observations from a re-analysis of the deposited data

How the results depend on the processing

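Of 360 recomputed changes and ratios of the 2 genes, 349 kept their direction and their side of the threshold, and 0 lost or gained a call. The 11 that turned sign, 10 of them on leaving out an array, belonged to values that were not called. The difference between the genes kept its sign in 58 of 60 values, and its exact test could pass the threshold under none of these settings. Over the arrays left out, the log2 change of UGT78D1 at 0.5 h in polysome RNA ran from -0.44 to 0.17, its dark ratio from -0.23 to 0.88, and the difference between the genes at 4 h in steady-state RNA from -1.18 to 0.19. The UGT78D2 ratio ran from -0.17 to 0.23 at 0.5 h and from -0.024 to 0.29 at 4 h, and its change between them from -0.10 to 0.31. With a common median the UGT78D2 ratio at 0.5 h was 0.022. The adjusted p of the UGT78D2 rise at 0.5 h stayed between 7.52e-06 and 0.0202 in steady-state RNA and between 0.000456 and 0.0173 in polysome RNA over all alternatives, and that of the UGT78D1 rise at 4 h in steady-state RNA between 2.28e-09 and 2.7e-05. UGT78D1 fell below the stricter filter, which gave no value for it.

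With the replicate block no call of either gene changed: at 0.5 h in steady-state RNA UGT78D1 kept its change of 1.02 (limma, adjusted p = 0.24) and UGT78D2 1.97 (limma, adjusted p = 7.52e-06). In the blocked exact permutation test, whose smallest p is 0.25, the polysome difference at 0.5 h had p = 0.25. The number of probe sets called at 0.5 h was 227 in steady-state RNA, against 409 with the block, 88 from the compared arrays alone and 147 to 389 over arrays left out. It was 208 in polysome RNA, against 357 with the block. Called ratios numbered 1313 in the dark, 1325 at 0.5 h and 2133 at 4 h, against 2738, 2944 and 3677 with the block, and 384 at 0.5 h from the compared arrays alone and 875 with a common median. Over arrays left out they ran from 622 (without dark polysome replicate 1) to 1299, from 570 (without 0.5 h polysome replicate 2) to 2123 (without 0.5 h steady-state replicate 1), and from 1257 (without 4 h polysome replicate 2) to 1743. Called changes of ratio numbered 58 at 4 h against dark and 3 against 0.5 h, against 300 and 131 with the block and 13 and 0 without the intensity trend. Over arrays left out they ran from 12 (without dark steady-state replicate 3) to 73 and from 0 to 211 (without 0.5 h steady-state replicate 1).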
